A study of Rattus norvegicus with 12 samples.

Results

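The data set out here are the effect of neonatal hypoxia-ischaemia on cortical gene expression in rat pups that had all been given MCI-186. Of the 12 arrays of the study, 6 were chosen by their titles, 3 of injured pups (Rice + MCI-186) and 3 of control pups (Control + MCI-186), 1 array per pup. The pups were Wistar rats assigned to groups at 7 days of age, and the labels give the age of the cortex samples as 2 weeks with no other time of collection. In the injured pups the left carotid artery was cut between ligatures under ether, and after 1 to 2 h of recovery the pups breathed 8% oxygen for 1 h at 33 °C. They then received 9 mg/kg MCI-186 intraperitoneally, and the dose was repeated after 30 min. The control pups were not exposed to the insult and received 9 mg/kg MCI-186, and no sham operation is described for them. The other 6 arrays, 3 of injured and 3 of control pups given saline, carried the same contrast without the drug. Each array was a 1-colour Agilent whole rat genome array hybridised from 500 ng of RNA of the cortex on the side of the lesion, or of the same side in controls.

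Carotid occlusion followed by hypoxia in the newborn rat injures the hemisphere on the side of the ligated artery and spares most of the other, and it is the standard rodent model of hypoxic-ischaemic encephalopathy. Neurons and immature oligodendrocytes are the cells known to be most easily lost, and microglia, infiltrating macrophages and astrocytes then react over days to weeks. MCI-186, also known as edaravone, is a pyrazolone antioxidant that scavenges free radicals. Both groups had the drug, so the contrast is of injury in its presence. The repeat dose is stated for the injured pups only. The effects of that dose, the ether, the surgery and the chamber cannot be told apart from that of the injury.

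Levels are given below as log2 of an array's processed signal over that array's 75th percentile, so that 0 is the signal of a probe at the 75th percentile, and a change is the injured mean minus the control mean on this log2 scale. A gene is said to have risen or fallen where limma's moderated test, fitted across all 25166 features of the 12 arrays, gave a Benjamini-Hochberg adjusted p under 0.05, and adjusted p refers to that value throughout. Genes were kept where a probe was well above background on all 3 arrays of a group, and measured in both groups means that it was so on at least 1 array of the other as well. Where a probe was not well above background on any array of the lower group, the change is a bound, written as at least N-fold, with the dim side set at the lowest well-measured signal of its arrays. Where an alternative setting, or leaving out 1 pup, ended the call of a gene named below or added one, the change and adjusted p are given for the setting that moved the adjusted p farthest. The labels do not say whether pups came from separate litters, so p-values measure the spread between these pups. Each of the 4 groups lay on a slide of its own and in a scan of its own, so slide, scan and injury cannot be told apart within the 6 arrays.

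The 6 arrays differed mainly between the injured and the control group. Of the 25166 features tested, 13363 passed the test, which is 53.1%, with 5191 higher in injured pups (20.6%) and 8172 lower (32.5%). Among 9132 named genes 2355 rose (25.8%) and 2926 fell (32%), and the groups did not overlap for 6439 of them (70.5%). Of the 8912 named genes measured in both groups 2145 rose (24.1%) and 2922 fell (32.8%), 56.9% in all, with a median change of -0.10, and the groups did not overlap for 6222 of them (69.8%). The members of each list below are to be read against those last shares. The rises were the steeper changes, since the median of the genes that rose was 1.01 and that of the genes that fell was -0.58, and 155 genes rose by 8-fold or more against 4 that fell as far. A further 214 named genes were well above background only in injured pups, of which 209 passed the test, against 5 only in controls. Such genes were kept through their brighter group alone. The filter therefore largely set the direction of their calls, here and in the lists below, and these calls are not separate support.

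The 3 injured pups were not alike. The first principal component of the 6 arrays held 83.4% of the variance and placed injured pups 1, 2 and 3 at 88.1, 41.5 and 86.6, against -68.7, -77.8 and -69.7 for the control pups. Pup 2 was the mildest: it had the lowest level of the 3 injured pups for 2042 of the 2355 genes that rose, and the highest for 2121 of the 2926 that fell. The median change of the rising genes was 1.16, 0.71 and 1.15 in injured pups 1, 2 and 3, and that of the falling genes was -0.65, -0.42 and -0.64. Pairs of injured arrays correlated at 0.9825 to 0.9904 and pairs of control arrays at 0.9937 to 0.9951, across probes. Without pup 2 the counts over the genes measured in both groups were 2285 risen and 3015 fallen, and list counts that moved by over 1.5 times without it were small ones: of the T cell genes 1 rather than 3 rose, of the red cell genes 1 rather than 0 fell, and of the xenobiotic response genes 1 rather than 2 fell.

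**Figure D1:**
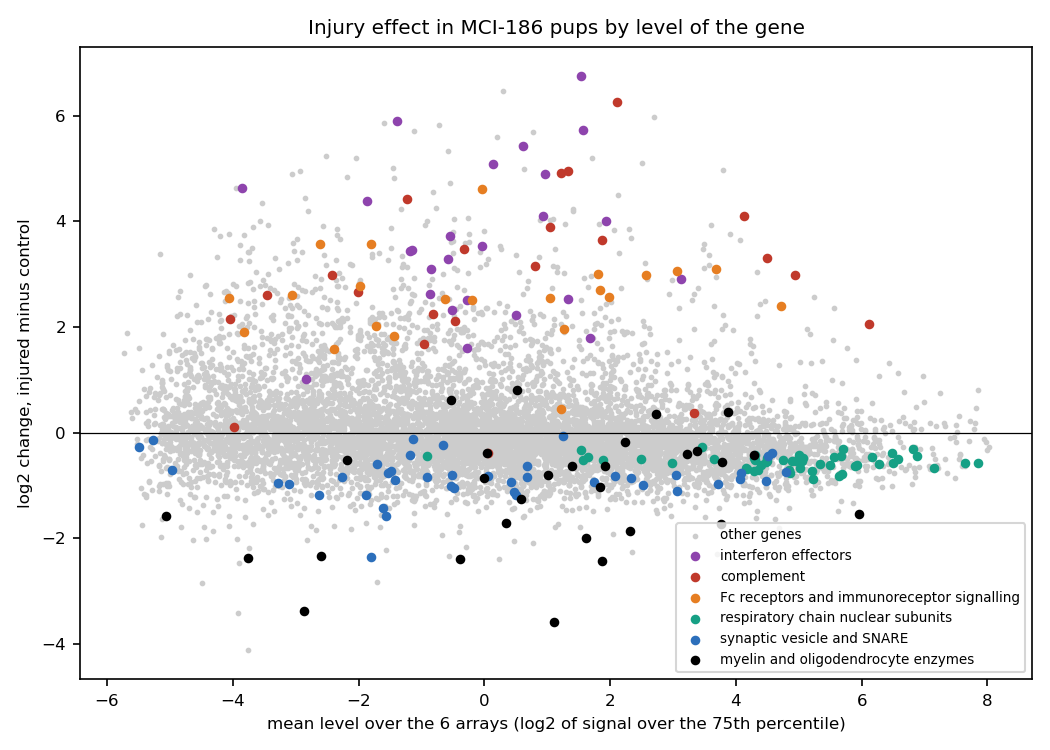
Change (injured minus control, log2, vertical axis) against mean level over the 6 arrays (log2 of signal over the 75th percentile, horizontal axis) for the named genes measured in both groups, with 6 gene lists coloured. Interferon effector, complement and Fc receptor genes lie above 0 and respiratory chain, synaptic vesicle and most myelin genes below it.

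Among the lists with 10 or more members measured in both groups, the highest median change was that of the interferon effectors, the antiviral proteins that cells make after interferon binds its receptor. All 25 members measured in both groups rose, with a median change of 3.46. A further 7 were below background in every control pup. They were kept through the injured group alone, so their direction adds nothing to that count. Isg15, a ubiquitin-like modifier, had levels of 5.08, 4.23 and 5.42 in injured pups, against -1.65, -2.04 and -1.83 in control pups, a change of 6.75 ± 0.30 (SE, adjusted p = 1.01e-06). The groups were far apart for this gene and pup 2 was the lowest of the injured pups. Oas1a, a 2'-5'-oligoadenylate synthetase that activates RNase L, stood at 4.66, 3.67 and 4.97 in injured pups, against -1.10, -1.56 and -1.21 in controls. Rsad2, known as viperin, had 3.48, 3.15 and 3.37 in injured pups and -2.04, -2.10 and -2.14 in controls, and here the 3 injured pups were close to one another. Their changes were 5.72 ± 0.32 and 5.42 ± 0.28 (adjusted p = 2.03e-06 and 1.43e-06). Usp18, which removes Isg15 from its targets, changed by 5.89, Rtp4 by 5.09, and Bst2, or tetherin, by 4.00. Ifit3, an RNA-binding antiviral protein, was not well above background in any control pup and was at least 21.1-fold higher in injured pups (adjusted p = 0.000164). At the low end of the list Adar, the double-stranded RNA editing enzyme, rose by 1.02. Summed over the list, the signal was 108.6 to 231.4 times an array's 75th percentile in injured pups and 12.05 to 12.76 times in control pups.

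Upstream of these effectors, 12 of the 15 measured interferon ligands, receptors and regulators rose and none fell (median 1.5). Irf7, the transcription factor that amplifies the type I interferon response, had levels of 3.79, 2.82 and 4.01 in injured pups, against -2.83, -3.23 and -2.74 in control pups, a change of 6.47 ± 0.36 (adjusted p = 2.05e-06). Irf9 and Stat2, which belong to the ISGF3 complex that carries the signal of the receptor to the nucleus, rose by 2.63 and 2.15. Irf3, which is present before infection and is switched on by phosphorylation, had a change of 0.25 (adjusted p = 0.0916), and the receptor chain Ifnar1 of -0.11 (adjusted p = 0.317), so that neither passed the test. The negative regulators Socs1 and Socs3 rose by 1.58 and 1.5. Of 9 measured nucleic acid sensors 7 rose (median 2.02), among them Dhx58, which encodes the RIG-I-like protein LGP2 (4.01), the endosomal RNA receptors Tlr7 (3.25) and Tlr3 (2.74), Ifih1, known as MDA5 (2.20), and Sting1, the adaptor of cytosolic DNA sensing (2.02). The DNA sensors Tlr9 and Aim2 had changes of 0.11 and 0.04 and did not pass. Gbp2 and Irgm, GTPases that interferon gamma induces, rose by 4.5 and 4.01. Irf3 passed with normexp background correction (0.38, adjusted p = 0.00849).

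The promoters of these genes are shown because interferon-induced transcription is known to act through a short element, the interferon-stimulated response element (ISRE), which the ISGF3 complex binds. A form of it, GAAA followed after any 2 bases by another GAAA, was searched for on both strands of RefSeq's rat promoters (assembly GRCr8, 250 bases before to 50 after each gene's start, 300 bases in all). It occurred in 1034 of 27456 promoters (3.77%), in 229 of 7458 promoters of genes tested (3.07%) and in 22 of the 116 promoters found for genes measured in both groups that rose by 8-fold or more (19%). Among genes that fell the share was 56 of 2376 (2.36%), and among those that did not pass 78 of 3188 (2.45%). The interferon effector list held it in 20 of 36 promoters (55.6%) and the MHC class I list in 9 of 24 (37.5%), whereas none of 17 complement promoters did. A match of letters describes the sequence only. The promoters below are written 5' to 3' on the gene's strand, with the matched letters in capitals. For Irf7 the window is chr1:205799974-205800273 (minus strand), for Rsad2 chr6:48788071-48788370 (minus strand), for Ifit3 chr1:241527076-241527375 (plus strand), for Oas1a chr12:41330216-41330515 (plus strand), where matches overlap, and for Tap1, a gene of antigen presentation taken up next, chr20:4668494-4668793 (minus strand).
Irf7: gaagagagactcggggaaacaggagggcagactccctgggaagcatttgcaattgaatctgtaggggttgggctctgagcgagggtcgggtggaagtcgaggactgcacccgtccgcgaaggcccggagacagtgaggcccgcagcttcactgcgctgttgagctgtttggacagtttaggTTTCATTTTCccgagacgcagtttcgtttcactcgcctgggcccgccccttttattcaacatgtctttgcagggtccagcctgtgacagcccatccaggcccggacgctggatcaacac
Rsad2: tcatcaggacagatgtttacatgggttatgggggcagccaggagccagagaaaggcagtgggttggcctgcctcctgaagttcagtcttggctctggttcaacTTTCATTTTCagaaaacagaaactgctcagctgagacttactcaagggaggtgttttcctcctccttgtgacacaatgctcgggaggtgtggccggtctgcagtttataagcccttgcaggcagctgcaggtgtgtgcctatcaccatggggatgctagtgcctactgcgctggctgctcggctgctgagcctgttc
Ifit3: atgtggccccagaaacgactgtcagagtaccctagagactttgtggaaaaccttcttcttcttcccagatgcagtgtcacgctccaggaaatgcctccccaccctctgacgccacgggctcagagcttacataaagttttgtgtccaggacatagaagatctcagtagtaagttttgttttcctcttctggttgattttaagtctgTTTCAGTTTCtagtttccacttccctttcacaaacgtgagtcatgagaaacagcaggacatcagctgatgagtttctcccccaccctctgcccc
Oas1a: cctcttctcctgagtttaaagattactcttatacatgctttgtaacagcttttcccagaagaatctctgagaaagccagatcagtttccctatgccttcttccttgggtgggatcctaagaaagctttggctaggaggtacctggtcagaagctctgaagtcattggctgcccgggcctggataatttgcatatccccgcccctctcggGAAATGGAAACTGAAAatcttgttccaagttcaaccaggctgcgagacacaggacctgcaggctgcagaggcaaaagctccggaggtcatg
Tap1: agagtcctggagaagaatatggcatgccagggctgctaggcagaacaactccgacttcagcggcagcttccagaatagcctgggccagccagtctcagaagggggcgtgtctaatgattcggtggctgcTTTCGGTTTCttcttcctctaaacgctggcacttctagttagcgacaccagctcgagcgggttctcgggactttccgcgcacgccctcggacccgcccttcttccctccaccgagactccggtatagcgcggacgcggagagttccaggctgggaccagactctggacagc

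Most measured genes of antigen presentation rose. MHC class I molecules show peptides from inside the cell to CD8 T cells, and of 21 measured genes of this pathway 18 rose and none fell (median 1.92). Tap1, the peptide transporter into the endoplasmic reticulum, had levels of 2.01, 1.21 and 2.07 in injured pups, against -2.15, -2.47 and -2.24 in control pups, a change of 4.05 ± 0.25 (adjusted p = 3.04e-06). The light chain B2m rose by 1.74 and the heavy chain gene RT1-A2 by 3.58. RT1 heavy chain genes are near-identical copies, so the probe of 1 gene can also bind transcripts of another, and their values cannot be assigned to 1 gene with certainty. The interferon-inducible catalytic subunits of the immunoproteasome rose, Psmb9 by 3.95, Psmb8 by 3.58 and Psmb10 by 0.93, as did the activator subunits Psme1 (1.92) and Psme2 (1.30). Constitutive catalytic subunits that they replace had small changes the other way: Psmb5 -0.45 (adjusted p = 0.00919) and Psmb7 -0.43 (adjusted p = 0.00134). Over the 27 constitutive proteasome genes 18 fell and none rose (median -0.28), but this count was 7 after quantile normalization and 10 to 11 when pup 1 of the injured group or any control pup was left out, or when the 75th percentile was taken over well-measured probes. The general folding factors of the class I pathway, Calr (0.05) and Canx (0.25), did not pass. Canx passed without injured pup 2 (0.42, adjusted p = 0.0168).

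MHC class II molecules present peptides taken up from outside to CD4 T cells, and 8 of 9 measured genes of that pathway rose (median 2.62). Cd74, the invariant chain, had levels of 1.61, 1.61 and 2.24 in injured pups, against -2.77, -3.18 and -2.73 in control pups, a change of 4.71 ± 0.23 (adjusted p = 1.37e-06). The groups were far apart, and pup 2 equalled pup 1 here. RT1-Da, a class II chain, rose by 4.83, Ifi30, which reduces disulphide bonds of antigens in the lysosome, by 2.62, and RT1-DMa, which helps to load peptides, by 1.49. The co-stimulatory ligand Cd86 was below background in every control pup and was at least 16.2-fold higher in injured pups (adjusted p = 4.01e-06). Of the genes that mark the T cells to which these molecules present, 26 were on the array and 16 were not well above background in either group. Cd4, Cd8a and Cd8b were well above background only in injured pups, at least 6.82-, 10.3- and 22.1-fold higher. Which cells of the bulk cortex carried these transcripts was not tested, so the bounds do not by themselves show T cells. Of the 7 T cell genes measured in both groups 3 rose, 2 fell and 2 did not pass (median 0.08). Cd3d, a chain of the T cell receptor complex, rose by 0.56 (adjusted p = 0.021), while Zap70 and Thy1 fell by 0.98 and 1.12. Thy1 is also an abundant protein of neurons. Summed over the T cell list, the signal was 4.62 to 5.65 in injured pups and 4.46 to 4.64 in control pups, in multiples of the 75th percentile, and its part in the rise of antigen presentation was not tested. Cd3d no longer passed without control pup 2 (0.52, adjusted p = 0.0646).

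Complement, the cascade of plasma and tissue proteins that tags synapses, debris and microbes for removal, rose in 20 of 22 measured genes (median 2.98). C3, the central component, had levels of 5.47, 4.82 and 5.45 in injured pups and -0.47, -1.18 and -1.39 in control pups, a change of 6.26 ± 0.30 (adjusted p = 1.37e-06). The genes that rose included C1qa of the classical pathway (3.30), C2 (4.96), Cfb of the alternative pathway (4.92) and C6 of the membrane attack complex (2.15). Inhibitors rose beside activators, with Serping1, the C1 inhibitor, at 4.10 and Clu, clusterin, at 2.06. The receptors C3ar1 and C5ar1 rose by 2.98 and 2.65. Cd46 (0.10) and Masp1 (-0.39) did not pass. Masp1 passed in a fit of the 6 arrays alone (-0.39, adjusted p = 0.0346).

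Receptors by which microglia and macrophages bind antibody and debris, and the kinases and adaptors behind them, rose without exception among the 22 measured genes (median 2.56). Fcgr3a, a low-affinity IgG receptor, had levels of 2.59, 1.59 and 2.61 in injured pups, against -2.03, -2.32 and -2.70 in control pups, a change of 4.61 ± 0.32 (adjusted p = 5.8e-06). The inhibitory receptor Fcgr2b rose by 3.00, close to the activating receptors Fcgr1a (2.57) and Fcgr2a (2.51). Signal transducers downstream followed, with the adaptor Tyrobp at 3.06 and its partner Trem2 at 3.09, the exchange factor Vav1 at 3.56, the kinases Btk (2.60) and Syk (1.84), and the phosphatase Ptpn6 at 2.99. Inpp5d, the phosphatase SHIP1, rose least, by 0.44 (adjusted p = 0.0385). Inpp5d no longer passed without injured pup 1 (0.37, adjusted p = 0.127).

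Of 27 genes of phagocytic microglia and macrophages 25 rose (median 1.51). Cd68, a membrane protein of phagocyte lysosomes, had levels of 3.73, 2.51 and 3.66 in injured pups and -1.93, -2.26 and -2.22 in control pups, a change of 5.43 ± 0.28 (adjusted p = 1.4e-06). Spp1, or osteopontin, rose by 5.69, Gpnmb by 5.19 and Lgals3, galectin-3, by 3.93, whereas Arg1, arginase 1, had a change of -0.56 and did not pass (adjusted p = 0.0556). Genes of resting microglia, listed together with general myeloid genes such as Ptprc and Spi1, did not fall as a list. Of 16 measured 14 rose (median 1.54), including Cx3cr1, the receptor for neuronal fractalkine, by 2.26, and Csf1r, on which microglia depend, by 2.18. P2ry12, the purine receptor of surveying microglia, rose by 0.80 (adjusted p = 0.0069), and Tmem119 had -3.04, -3.53 and -3.84 in injured pups, against -3.80, -3.54 and -3.38 in controls, with overlapping groups (change 0.11, adjusted p = 0.764). In bulk cortex more cells of a type and more RNA per cell cannot be told apart, and the same holds for every loss described below. Arg1 passed without injured pup 3 (-0.75, adjusted p = 0.0224).

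Pattern recognition and its signalling rose in 14 of 19 measured genes (median 1.32). Cd14, the lipopolysaccharide co-receptor, rose by 3.61, Tlr4 by 3.1 and Tlr2 by 2.42, and the adaptor Myd88 by 1.83. Of the inflammasome and pyroptosis genes 8 of 10 rose (median 2.24), with Pycard, the adaptor ASC, at 3.04, Casp1 at 2.17 and Il1b, the cytokine it activates, at 3.17. Among 34 cytokines and cytokine receptors measured in both groups 24 rose and none fell (median 1.2). Among receptors Tnfrsf1b rose by 2.25 and Il13ra1 by 2.28, beside Csf1 (2.25) and Tgfb1 (2.37). The antagonist Il1rn had a change of 0.31 (adjusted p = 0.262). The other 10 did not pass the test.

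Chemokines, which guide leukocytes along gradients, split by direction. Of 16 ligands and receptors measured in both groups 12 rose and 3 fell (median 1.52), and 10 more were above background only in injured pups and 1 only in controls. Ccl2, the ligand that draws monocytes, had levels of 1.53, 1.93 and 1.73 in injured pups, against -3.93, -4.04 and -3.95 in control pups, a change of 5.70 ± 0.30 (adjusted p = 1.82e-06). Pup 2 was the highest of the injured pups for this gene, unlike for most that rose. The related ligands Ccl3 and Ccl7 rose by 5.87 and 5.24. Cxcl1, a ligand for neutrophils, was at least 20.9-fold higher and Cxcl13, a ligand for B cells, at least 14.5-fold higher. The neuronal chemokine Cx3cl1 fell by 0.86, Ccl17 by 1.39 and Ccl27 by 0.83, and Ccl21 was below background in every injured pup, at least 2.28-fold lower (adjusted p = 0.000144). A form of the site that NF-kB binds, GGGA and TTTCC with any base between them, was searched on both strands. It stood in 102 of 27456 promoters (0.372%) and in 38 of 7458 of genes tested (0.51%). Among genes measured in both groups it stood in 12 of 1712 that rose (0.701%) and 9 of 2376 that fell (0.379%). Among chemokine and receptor promoters it stood in 3 of 37 (8.11%), those of Cxcl1, Cxcl6 and Ccr3. Cxcl6 and Ccr3 were not among the genes tested. The Cxcl1 promoter (chr14:17479272-17479571 (minus strand), GRCr8, 5' to 3' on the gene's strand, match in capitals) is printed as 1 of those 3.
Cxcl1: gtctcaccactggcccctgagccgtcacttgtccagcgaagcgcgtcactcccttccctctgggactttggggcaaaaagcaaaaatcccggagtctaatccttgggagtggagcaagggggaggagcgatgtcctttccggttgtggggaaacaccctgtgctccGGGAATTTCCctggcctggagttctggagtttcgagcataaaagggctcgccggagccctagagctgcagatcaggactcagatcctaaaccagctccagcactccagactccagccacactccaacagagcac

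Leukocytes that might enter from the blood were followed with their own markers. Of the 8 measured genes of neutrophils and calprotectin 3 rose and 5 did not pass. The calprotectin chains S100a8 and S100a9 had levels of -4.53, -3.77 and -3.85 and of -3.99, -3.30 and -3.41 in injured pups, against -4.49, -5.81 and -5.97 and -3.85, -4.98 and -4.87 in controls, with wide spread and adjusted p of 0.222 and 0.233. Lcn2, which neutrophils store but astrocytes also secrete, rose by 5.08. Red cell genes stood apart in injured pup 2. Alas2, the heme synthesis enzyme of erythroid cells, had 1.00, 4.01 and 0.84 in injured pups and 1.08, 1.12 and 1.75 in controls, and the list averaged 1.74 above the control mean in pup 2, against 0.12 and 0.25 in pups 1 and 3. Of the 9 measured red cell genes 1 rose, and without pup 2 the median of the list was -0.17. Cd22, an inhibitory B cell receptor that microglia also carry, rose by 4.95, and Cd79b, a chain of the B cell receptor, had a change of 1.12 (adjusted p = 0.514). S100a8 passed in a fit of the 6 arrays alone (1.37, adjusted p = 0.033), S100a9 in a fit of the 6 arrays alone (1.00, adjusted p = 0.0444) and Cd79b without control pup 1 (3.24, adjusted p = 0.00129).

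**Figure D2:**
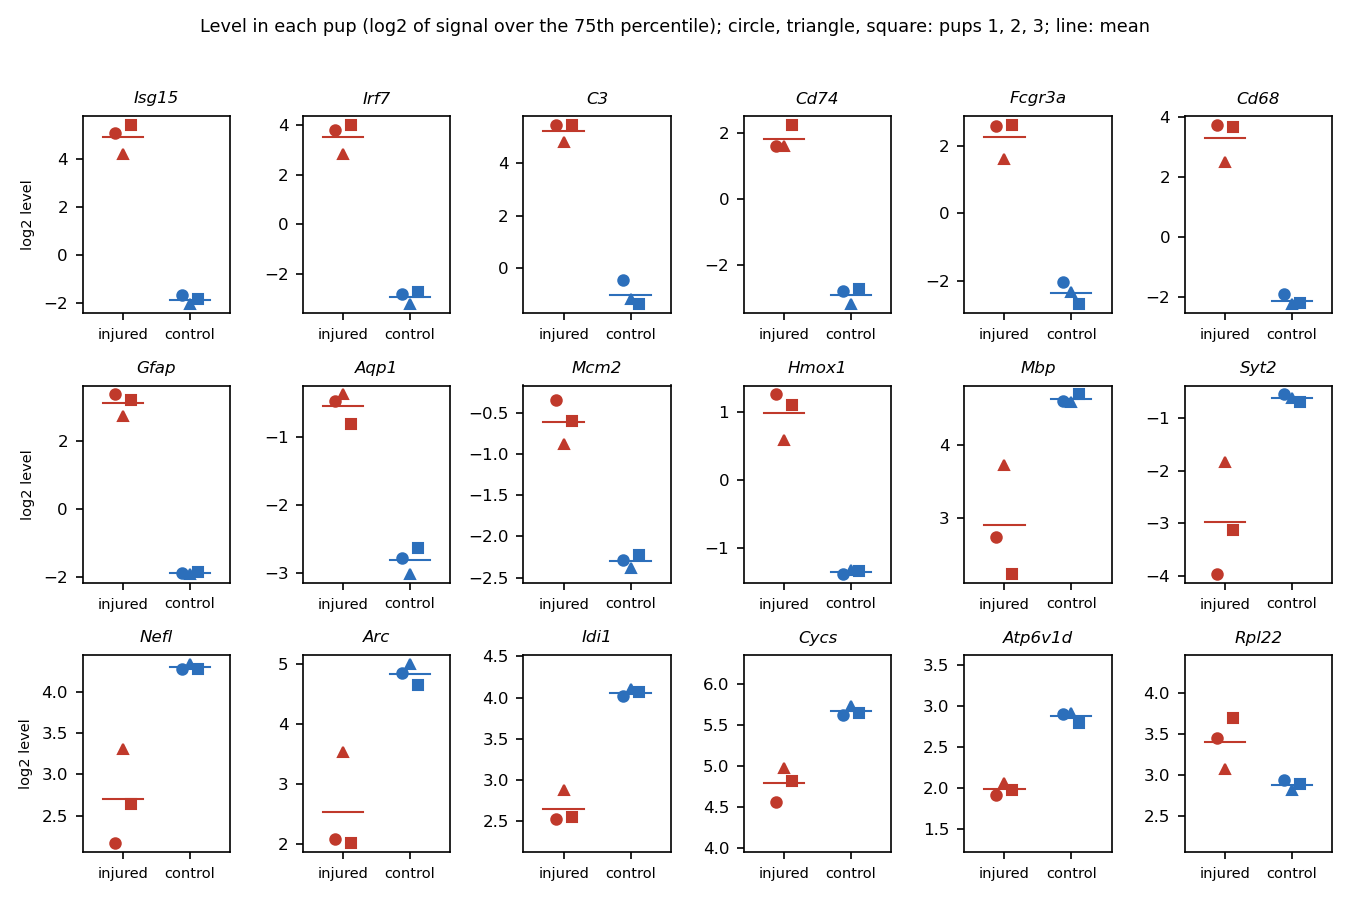
Level of 18 genes in each pup (log2 of signal over the 75th percentile; red, injured; blue, control; circle, triangle and square, pups 1, 2 and 3; horizontal line, group mean; each panel has its own vertical scale). Immune, glial and cell cycle genes are higher in all 3 injured pups, neuronal, myelin, sterol and mitochondrial genes are lower, and the triangle of injured pup 2 lies nearest the controls in many panels.

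Superoxide production in phagocytes depends on the NADPH oxidase, and its genes bear on a drug that scavenges radicals. Ncf1, which encodes p47phox, had levels of 1.80, 1.01 and 1.28 in injured pups, against -2.64, -2.97 and -3.05 in control pups, a change of 4.25 ± 0.19 (adjusted p = 1.01e-06). Cybb, the catalytic subunit, was below background in every control pup and was at least 6.3-fold higher in injured pups, and its partner Cyba rose by 2.92. Rac2, the GTPase of the phagocyte oxidase, rose by 3.48, while the broadly expressed Rac1 had a change of 0.06 and did not pass. The endothelial nitric oxide synthase Nos3 and the arginase Arg2 fell by 0.45 and 1.00, so that 4 of the 9 measured oxidase and nitric oxide genes rose and 2 fell (median 0.39). Among 41 antioxidant and NRF2-regulated genes 16 rose, 10 fell and 15 did not pass (median 0.06). Hmox1, heme oxygenase 1, had 1.25, 0.58 and 1.10 in injured pups and -1.39, -1.33 and -1.34 in controls, a change of 2.33 ± 0.18 (adjusted p = 8.77e-06). Mgst1, a microsomal glutathione transferase, rose by 2.84, Gpx1 by 1.64 and the transcription factor Nfe2l2 itself by 1.63. The superoxide dismutases Sod1 and Sod2 fell by 0.40 (adjusted p = 0.0234) and 0.40 (adjusted p = 0.00804), and Gpx4, which protects membrane lipids from peroxidation, fell by 0.42. Gclc, the rate-limiting enzyme of glutathione synthesis, had a change of 0.06 and did not pass. The 10 falls became 6 after quantile normalization. Nos3 no longer passed without injured pup 3 (-0.33, adjusted p = 0.0574) and Sod1 without injured pup 1 (-0.37, adjusted p = 0.0732).

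Genes of prostaglandin and leukotriene metabolism rose in 15 of 20 cases (median 1.35). Pla2g7, which breaks down platelet-activating factor, rose by 5.60, Ptgs1, the constitutive cyclooxygenase, by 2.44, and the terminal synthases Tbxas1 and Hpgds by 3.29 and 3.13. Alox5ap, which helps 5-lipoxygenase, rose by 1.67, whereas Alox5 itself had a change of -0.32 (adjusted p = 0.181). Ptges2 was the 1 gene of the list that fell, by 0.38. Of 25 iron, heme and metallothionein genes 11 rose and 5 fell (median 0.20), with rises of the ferroxidase Cp (4.44), the phagosomal transporter Slc11a1 (1.96) and the ferritin chains Ftl1 (0.77) and Fth1 (0.56), and falls of the exporter Slc40a1 (-0.44), the importer Slc11a2 (-0.50), the biliverdin reductase Blvra (-0.65), the constitutive heme oxygenase Hmox2 (-0.86) and the vesicular zinc transporter Slc30a3 (-1.04). Tf, transferrin, had 5.64, 4.41 and 5.41 in injured pups, against 2.29, 2.41 and 1.24 in controls, and did not pass despite the separation of these 6 pups (3.17 ± 1.96, adjusted p = 0.192). The spread behind that SE is estimated over all 12 arrays. Ptges2 no longer passed without injured pup 3 (-0.27, adjusted p = 0.0977). Tf passed in a fit of the 6 arrays alone (3.17, adjusted p = 0.00228).

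Astrocytes react to injury by building intermediate filaments, and 20 of 23 measured genes of reactive astrocytes rose (median 2.76). Gfap, their main filament protein, had levels of 3.38, 2.75 and 3.22 in injured pups, against -1.86, -1.90 and -1.84 in control pups, a change of 4.98 ± 0.20 (adjusted p = 8.19e-07). Vim rose by 3.04, the small heat shock protein Hspb1 by 3.42 and the hyaluronan receptor Cd44 by 4.04. Genes of resting astrocytes split, with 8 of 21 higher, 3 lower and 10 not passing. The glutamate transporter Slc1a2 fell by 0.81 (adjusted p = 0.000622) and the potassium channel Kcnj10 by 0.71 (adjusted p = 0.000717), and Aldoc, an aldolase of astrocytes, fell by 0.41. In the same cell type the membrane protein Mlc1 rose by 1.07 and the gap junction protein Gja1 by 1.32. The water channel Aqp4 rose by 0.94 on the brightest probe.

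Genes of the extracellular matrix and of mural cells mostly rose, and endothelial genes were divided. Of 33 structural matrix genes 21 rose and 2 fell (median 0.50), with Col3a1 at 2.51, the small proteoglycan Bgn at 1.96 and Fn1, fibronectin, at 0.67. Hapln2, a link protein of the nodes of Ranvier, was the steeper of its falls, by 3.58, beside Tnn (-0.94). Mural cell and fibroblast genes rose in 14 of 21 cases (median 1.05), and the pericyte genes Rgs5 (-0.34), Kcnj8 (-0.51) and Higd1b (-0.84) fell. Of 24 endothelial genes 9 rose, 7 fell and 8 did not pass (median -0.07), and 5 rather than 9 rose when control pup 1 or control pup 3 was left out. Mfsd2a and Slco1c1, transporters of the blood-brain barrier for lysolipids and thyroid hormone, fell by 1.24 and 1.09, and Cldn5, the tight junction claudin, by 0.38. Plvap, a protein of fenestrated vessels, was below background in every control pup and at least 2.08-fold higher in injured pups (adjusted p = 0.000184). The general endothelial gene Pecam1 rose by 1.27, and Kdr had a change of -0.23 and did not pass. Rgs5 no longer passed without control pup 2 (-0.28, adjusted p = 0.102) and Cldn5 after quantile normalization (-0.19, adjusted p = 0.0607). Kdr passed with a variance trend (-0.23, adjusted p = 0.0448).

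Proteins of adhesion, clotting and wound repair rose in part. Of 15 leukocyte adhesion and integrin genes 11 rose and 1 fell (median 0.87), with the integrin chain Itgb2 at 3.48 and its endothelial ligand Icam1 at 2.39, and the fall was of Cd47, the signal against phagocytosis (-0.39). Itgal, the partner of Itgb2 on lymphocytes, was at least 13.2-fold higher. Of 14 annexin and S100 genes 12 rose and none fell, led by S100a4 (4.97) and S100a6 (3.94), calcium-binding proteins of motile cells. Of 12 acute-phase and wound genes 7 rose (median 1.05), with the protease inhibitor A2m at 5.97, and the fibrinogen chain Fgg fell by 1.01. Of 13 coagulation genes 8 rose, including thrombomodulin, Thbd (1.25), and F12, factor XII, fell by 1.26. Of 15 matrix proteases and inhibitors 10 rose, among them Timp1 (2.76) and Mmp14 (1.86), and the membrane-type proteases Mmp17 and Mmp24 fell by 0.79 and 0.57. Of 17 glucocorticoid-responsive genes 6 rose and 4 fell, and of 12 xenobiotic response genes 6 rose and 2 fell, or 1 after quantile normalization, with another set of probes for the percentile, or without any 1 of 5 of the 6 pups. Fkbp5 and Tsc22d3, which glucocorticoids induce, had changes of -0.10 and 0.01 and did not pass. Cd47 no longer passed as the mean of its probes (-0.24, adjusted p = 0.106) and Mmp17 without injured pup 3 (-0.48, adjusted p = 0.183).

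Genes of motile cilia and of the choroid plexus rose in all 11 cases measured in both groups (median 2.00). Foxj1, the master regulator of motile cilia in ependymal cells, had levels of 3.08, 2.36 and 3.24 in injured pups, against -0.96, -1.56 and -0.86 in control pups, a change of 4.02 ± 0.34 (adjusted p = 1.72e-05). Folr1, a folate receptor of the choroid plexus, changed by 4.20 and Aqp1, its water channel, by 2.26. The tissue is labelled cerebral cortex, and these are markers of the ventricle lining and choroid plexus. Over the list the summed signal was 12.5 to 22.0 in injured pups and 2.57 to 3.53 in control pups, in multiples of the 75th percentile. The list's part in the other rises was not tested. Striatal genes, another neighbouring tissue, fell in 8 of 12 cases and rose in none (median -0.73): Pde10a fell by 1.41 and Drd1 by 0.72, while Ppp1r1b had a change of 0.02 and did not pass. The summed striatal signal was 32.3 to 59.9 in injured pups and 90.5 to 92.2 in control pups.

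Of 43 genes of the cell cycle and DNA replication 33 rose and 4 fell (median 1.2). Mcm2, a subunit of the replicative helicase, had -0.34, -0.88 and -0.60 in injured pups, against -2.28, -2.39 and -2.23 in controls, a change of 1.69 ± 0.20 (adjusted p = 0.000125). The mitotic kinases Aurkb and Cdk1 rose by 2.54 and 1.75, and the cyclins Ccnb1 and Ccna2 by 2.05 and 1.55. The 4 falls were of the G1 cyclins Ccne1 (-0.85) and Ccne2 (-0.41), the inhibitor Cdkn2b (-0.89) and Stmn1 (-0.47), a tubulin-binding protein that neurons also make. Of 45 cell death and p53 genes 21 rose, 4 fell and 20 did not pass (median 0.33). The death receptor Fas rose by 3.27, Ripk3, the kinase of necroptosis, by 3.37 and Casp8 by 2.05. Members of the mitochondrial route such as Bax (-0.06), Apaf1 (0.05) and Casp9 (-0.14) did not pass. Cflar, the inhibitor of Casp8, fell by 0.91 (adjusted p = 5.98e-05), as did Zmat3 (-0.89), Plk2 (-0.88) and Ccng1 (-0.67), targets of p53. Ccne2 no longer passed as the mean of its probes (-0.23, adjusted p = 0.111), Stmn1 after quantile normalization (-0.32, adjusted p = 0.0743) and Plk2 without injured pup 3 (-0.63, adjusted p = 0.103).

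**Figure D3:**
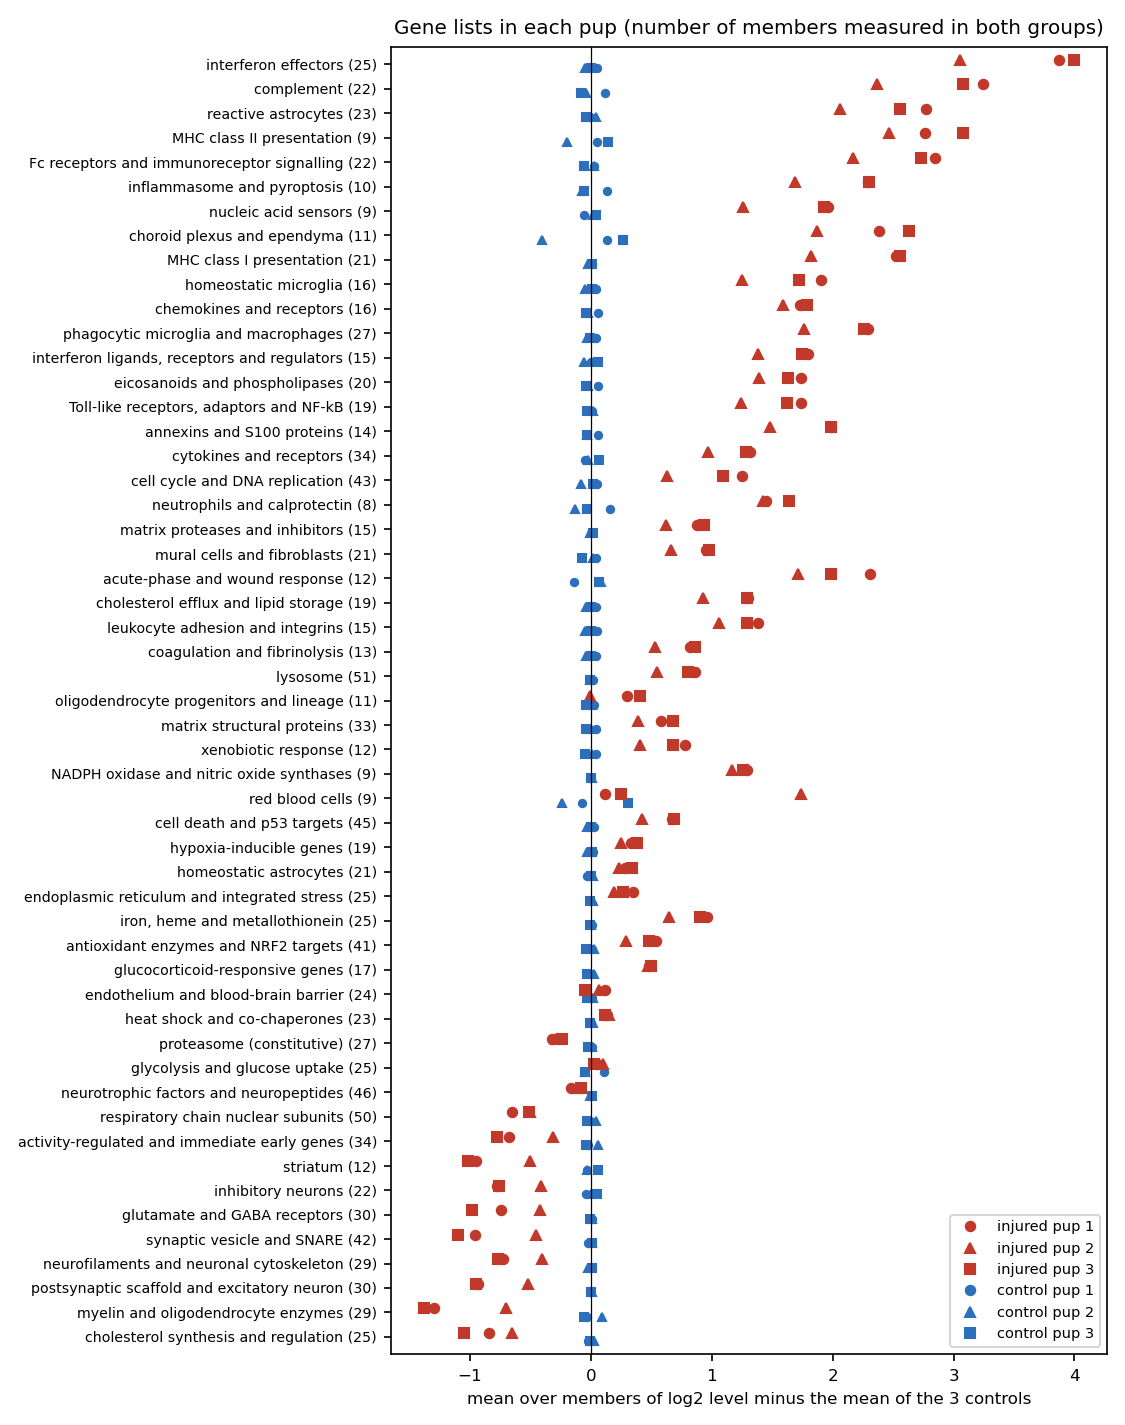
Mean over the members of each gene list of the log2 level minus the mean of the 3 controls, for each injured pup (red) and each control pup (blue); the number of members measured in both groups stands in brackets. Injured pups 1 and 3 lie close together for most lists, injured pup 2 lies nearer 0, and red blood cell genes have pup 2 to the right of the others.

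Neuronal genes fell across synapse, receptors, channels and cytoskeleton. None of the 42 measured synaptic vesicle and SNARE genes rose and 35 fell (median -0.84). Syt2, a fast calcium sensor for transmitter release, had levels of -3.96, -1.84 and -3.13 in injured pups, against -0.55, -0.62 and -0.69 in control pups, a change of -2.36 ± 0.44 (adjusted p = 0.00147). Snap25, a core SNARE protein, had 3.81, 4.54 and 3.70 in injured pups and 4.92, 4.94 and 4.97 in controls, a change of -0.92 ± 0.23 (adjusted p = 0.0067). Pup 2 was nearest to the controls for both genes. Other falls included the active zone scaffold Rims1 (-1.57), complexin 1, Cplx1 (-1.19), and the GTPase dynamin Dnm1 (-1.10), whereas the ubiquitous relative Sypl1 had a change of -0.07 and did not pass. On the receiving side 19 of 30 postsynaptic and excitatory neuron genes fell (median -0.84), among them Dlg4, which encodes PSD-95 (-0.92), Camk2a (-0.95) and Slc17a7, the vesicular glutamate transporter of cortex (-0.89). Slc17a7 no longer passed without injured pup 3 (-0.63, adjusted p = 0.0513).

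Of 30 glutamate and GABA receptor subunits 19 fell and none rose (median -0.83). The obligatory NMDA subunit Grin1 fell by 0.93, and Grin2b, which predominates early in development, had a change of -0.41 and did not pass (adjusted p = 0.364). Among AMPA subunits Gria4 fell by 1.19 and Gria3 by 0.98. GABA-A subunits ran from Gabrd, found outside synapses, at -1.43 to Gabra5 at -0.21, which did not pass. Of 22 inhibitory neuron genes 15 fell and 1 rose (median -0.75): the synthesis enzymes Gad1 and Gad2 fell by 0.83 and 1.01, the vesicular transporter Slc32a1 by 1.16 and somatostatin, Sst, by 1.03. Sox6, a factor of interneuron precursors and of oligodendrocyte progenitors, rose by 0.58. Calb2, calretinin, had a change of 0.08 and did not pass. Gad2 no longer passed without injured pup 1 (-0.75, adjusted p = 0.0565) and Sox6 without control pup 2 (0.51, adjusted p = 0.0554).

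Ion channel genes mostly fell. All but 1 of 10 voltage-gated sodium channel genes fell (median -1.05), among them Scn1a, the channel of fast-spiking interneurons (-1.41), and Scn8a, the channel of mature axon initial segments (-1.32). Of 18 calcium channel subunits 13 fell and 1 rose (median -0.91), with the P/Q-type pore Cacna1a, which drives release, at -1.24 and Cacng4, an AMPA receptor auxiliary subunit, as the rise (0.54, adjusted p = 0.0453). Of 67 potassium channel genes 41 fell, 12 rose and 14 did not pass (median -0.73). Kcnn4, the calcium-activated channel of microglia and lymphocytes, was the steepest rise, with 1.24, 0.56 and 1.09 in injured pups, against -3.70, -3.98 and -3.88 in control pups, a change of 4.82 ± 0.23 (adjusted p = 1.37e-06). The steepest falls were of Kcnh5 (-2.02), Kcns1 (-1.94) and Kcnj9 (-1.78), channel genes of neurons. Cacng4 no longer passed with normexp background correction (-0.03, adjusted p = 0.821).

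The neuronal cytoskeleton fell in 22 of 29 genes and rose in 1 (median -0.84). Nefl, the neurofilament light chain, had levels of 2.17, 3.31 and 2.64 in injured pups, against 4.28, 4.34 and 4.28 in control pups, a change of -1.60 ± 0.28 (adjusted p = 0.00121). The heavier chains Nefm and Nefh fell by 1.49 and 1.47. Genes of young neurites included Dcx at 0.21 and Tubb3 at -0.22, neither of which passed, and Gap43, which fell by 0.39. Sncg, gamma-synuclein, rose by 2.05 (adjusted p = 0.0006), while its relative Sncb fell by 1.05. Of 46 neurotrophic factors and neuropeptides 27 fell and 7 rose (median -0.50), and 17 rather than 27 fell when injured pup 3 was left out. Bdnf fell by 0.65, its receptor Ntrk2 by 1.08 and the opioid precursor Pdyn by 1.41. Among the rises were growth factors and a binding protein, Igfbp2 (2.90), Fgf2 (2.26) and Igf1 (2.20). Gap43 no longer passed after quantile normalization (-0.24, adjusted p = 0.158), Bdnf without injured pup 1 (-0.58, adjusted p = 0.0806) and Ntrk2 as the mean of its probes (-0.12, adjusted p = 0.263).

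Genes switched on by neuronal activity fell in 24 of 34 cases and rose in 4 (median -0.71). Arc, whose mRNA travels to active synapses, had levels of 2.08, 3.54 and 2.02 in injured pups, against 4.85, 5.01 and 4.66 in control pups, a change of -2.29 ± 0.41 (adjusted p = 0.00118). The activity-dependent factors Npas4 and Nr4a1 fell by 2.03 and 1.81, Fos by 1.11 and the phosphatase Dusp1 by 1.45 (adjusted p = 0.00971). The 4 that rose, Atf3 (2.90), Ier3 (1.59), Myc (1.19) and Fosl1 (0.85), are early genes known to answer stress and growth signals. Jun had a change of -0.06 and did not pass. Fosl1 no longer passed with normexp background correction (0.06, adjusted p = 0.675). The cAMP response element TGACGTCA, a palindrome through which CREB drives activity-dependent genes, stood in 525 of 27456 promoters (1.91%), in 224 of 7458 of genes tested (3%), in 110 of 2376 of genes that fell (4.63%) and in 5 of 26 of this list (19.2%). The Dusp1 promoter (chr10:17184603-17184902 (plus strand), GRCr8, 5' to 3' on the gene's strand, match in capitals) is printed as 1 of those 5.
Dusp1: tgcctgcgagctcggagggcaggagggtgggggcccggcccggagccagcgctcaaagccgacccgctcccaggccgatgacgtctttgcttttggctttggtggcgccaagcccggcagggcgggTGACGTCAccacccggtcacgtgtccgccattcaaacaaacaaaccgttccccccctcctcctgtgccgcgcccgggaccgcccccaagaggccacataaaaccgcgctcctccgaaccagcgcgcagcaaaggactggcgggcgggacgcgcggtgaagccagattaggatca

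Myelin and oligodendrocyte enzyme genes fell in 22 of 29 cases and rose in 3 (median -0.87). Mbp, myelin basic protein, had levels of 2.73, 3.72 and 2.23 in injured pups, against 4.60, 4.58 and 4.68 in control pups, a change of -1.72 ± 0.36 (adjusted p = 0.00259). Mog, a surface protein of the outermost lamella, had 0.23, 1.79 and -0.18 in injured pups and 2.64, 2.65 and 2.54 in controls, and fell by 2.00 ± 0.43 (adjusted p = 0.00306). Injured pup 2 kept the most of both. Mal, a proteolipid of the myelin membrane, spread from -2.61 to -0.33 in injured pups, against 0.78 to 0.85 in controls. Cnp fell by 0.40 (adjusted p = 0.00975), and the claudin of myelin, Cldn11, had a change of -0.38 and did not pass. The 3 genes of the list that rose were Ndrg1 (0.81), Aspa, aspartoacylase (0.61), and the actin-severing protein Gsn (0.39). Of 11 progenitor and lineage genes 5 rose, 2 fell and 4 did not pass (median 0.51). Pdgfra, the receptor on progenitors, rose by 0.51 and Cspg4, NG2, had a change of -0.16 (adjusted p = 0.262). Olig1 fell by 0.57, and Nkx6-2, a factor of maturing oligodendrocytes, by 1.39. Cnp no longer passed after quantile normalization (-0.23, adjusted p = 0.109) and Gsn without injured pup 1 (0.31, adjusted p = 0.121). Cldn11 passed without injured pup 2 (-0.50, adjusted p = 0.0431).

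Cholesterol genes split by pathway. None of 25 genes of cholesterol synthesis and its regulation rose and 20 fell (median -0.90). Idi1, isopentenyl-diphosphate isomerase, had levels of 2.53, 2.87 and 2.55 in injured pups, against 4.02, 4.11 and 4.06 in control pups, a change of -1.41 ± 0.15 (adjusted p = 6.98e-05). Fdps, farnesyl diphosphate synthase, fell by 1.12, Insig1, the sterol-regulated retention protein of the endoplasmic reticulum, by 1.28, and the transcription factor Srebf2 by 0.67. In contrast 13 of 19 genes of cholesterol efflux and lipid storage rose and 1 fell (median 0.96). Abca1, the pump that loads cholesterol onto apolipoproteins, rose by 3.13, Abcg1 by 1.74, Ch25h, which makes 25-hydroxycholesterol, by 3.12, Nr1h3, the liver X receptor alpha, by 1.95 and Apoe by 0.80. The fall was of Fabp3, a fatty acid binding protein (-0.87). A form of the sterol response element, TCAC and CCAC with any base between them, was also searched on both strands of the promoters. It stood in 310 of 27456 promoters (1.13%), in 83 of 7458 of genes tested (1.11%) and in 0 of 20 of the cholesterol synthesis list. Among genes measured in both groups that rose by 8-fold or more it stood in 5 of 116 (4.31%).

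Mitochondrial genes fell by small but even amounts. Of 50 nuclear genes for respiratory chain and ATP synthase subunits 49 fell and none rose, and the exception, Sdhc, had a change of -0.28 (adjusted p = 0.0537). No gene of the list fell by 2-fold, the median was -0.53, and the groups did not overlap for any of the 50. Cycs, cytochrome c, had levels of 4.57, 4.98 and 4.82 in injured pups, against 5.63, 5.73 and 5.65 in control pups, a change of -0.88 ± 0.12 (adjusted p = 0.000264). Every complex was represented: Ndufa5 of complex I fell by 0.78, Sdhd of complex II by 0.51, Uqcrc2 of complex III by 0.61, Cox4i1 of complex IV by 0.77 and Atp5f1c, the gamma subunit of ATP synthase, by 0.73 (adjusted p = 0.000241). Of 63 mitochondrial ribosomal protein genes 41 fell and none rose (median -0.34). Of 68 cytosolic ribosomal protein genes 59 did not pass, 9 rose and none fell (median 0.14), with Rpl22 at 0.52 (adjusted p = 0.028). Probes of ribosomal protein genes can also bind their many processed copies. Rpl22 no longer passed without injured pup 3 (0.37, adjusted p = 0.104). Sdhc passed without injured pup 3 (-0.40, adjusted p = 0.00579).

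NRF1 is a transcription factor of many respiratory genes, and a form of its site, GCGCA and GCGC with any base between them, was searched on both strands. It occurred in 1292 of 27456 promoters (4.71%), in 697 of 7458 of genes tested (9.35%) and in 12 of 58 of the respiratory chain list (20.7%). The share was 229 of 2376 among genes that fell (9.64%) and 387 of 3188 among genes that did not pass (12.1%), against 78 of 1712 among genes that rose (4.56%). The Atp5f1c promoter (chr17:73333435-73333734 (plus strand), GRCr8, 5' to 3' on the gene's strand, match in capitals) is shown.
Atp5f1c: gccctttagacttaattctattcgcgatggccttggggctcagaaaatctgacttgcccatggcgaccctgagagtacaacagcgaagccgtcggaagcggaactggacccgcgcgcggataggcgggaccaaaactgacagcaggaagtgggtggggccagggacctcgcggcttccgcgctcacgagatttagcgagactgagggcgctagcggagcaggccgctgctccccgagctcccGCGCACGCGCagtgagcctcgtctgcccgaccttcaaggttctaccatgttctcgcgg

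Glycolysis had both directions, with 15 of 25 genes lower, 6 higher and 4 not passing (median -0.39). The enzymes of the common pathway fell, Tpi1 by 0.70, Pgk1 by 0.67, Aldoa by 0.67 and Gapdh by 0.48, and so did the neuronal glucose transporter Slc2a3, by 0.73. Rises included Hk3, the hexokinase of myeloid cells (2.77), Slc2a5, a fructose transporter of microglia (2.73) and Pfkfb3, the activator of phosphofructokinase (1.5). Of 19 hypoxia-inducible genes 8 rose, 4 fell and 7 did not pass (median 0.27). Vegfa fell by 0.94, Ankrd37 by 0.74, Bnip3 by 0.70 and Ero1a by 0.47. Adm, adrenomedullin, rose by 1.37, and Hif1a had a change of 0.01. Heat shock genes were led by the small proteins Hspb1 and Hspb8 (2.74) and the co-chaperone Bag3 (1.91), with smaller rises of Hspa1a (0.65) and Hspa2 (0.38), while Hsp90aa1 fell by 0.72. Of 23 in that list 5 rose, 8 fell and 10 did not pass, and the 8 falls became 4 after quantile normalization, with another set of probes for the percentile, or without injured pup 1 or any control pup. Of 25 genes of endoplasmic reticulum and integrated stress 8 rose, 4 fell and 13 did not pass (median 0.23). The enzymes Psat1 and Phgdh of serine synthesis rose by 1.46 and 0.99, and the falls were of Atf4 (-0.34), Eif2ak3, known as PERK (-0.47), Asns (-0.52) and Vldlr (-0.81). The chaperone Hspa5 of the endoplasmic reticulum had a change of 0.19 (adjusted p = 0.154) and Ddit3, CHOP, of 0.23 (adjusted p = 0.0974). Atf4 no longer passed after quantile normalization (-0.12, adjusted p = 0.251) and Eif2ak3 without control pup 3 (-0.38, adjusted p = 0.119). Hspa5 passed after quantile normalization (0.40, adjusted p = 0.00447) and Ddit3 with the 75th percentile of well-measured probes (0.30, adjusted p = 0.0355).

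The lysosome moved in opposite directions by part. Of 51 lysosomal genes 32 rose and 13 fell (median 0.63). Among 11 cathepsins, its proteases, 10 rose and none fell (median 1.08), with Ctsz at 3.53, Ctsc at 3.03 and Ctsd at 1.08. Among 17 subunits of the V-ATPase, the proton pump of lysosomes and synaptic vesicles, 13 fell and 1 rose (median -0.60). Atp6v1d, a stalk subunit, had levels of 1.92, 2.05 and 1.98 in injured pups, against 2.90, 2.92 and 2.79 in control pups, a change of -0.88 ± 0.11 (adjusted p = 0.000154). The brain isoform Atp6v1g2 fell by 0.85, and Atp6v1g1 had a change of -0.06 and did not pass. The exception, Atp6v0e1, had 2.74, 2.08 and 2.82 in injured pups and 1.44, 1.54 and 1.44 in controls, a change of 1.07 ± 0.19 (adjusted p = 0.00123). Among 209 solute carriers 59 rose and 70 fell, with Slc27a5, a fatty acid and bile acid ligase, at 3.79 and the zinc importer Slc39a4 at 3.75, against falls of the glutamate transporter Slc1a6 (-1.33) and the vesicular acetylcholine transporter Slc18a3 (-1.31). Of 20 cytochrome P450 genes 13 rose and 3 fell (median 0.81), and Cyp7b1, the oxysterol hydroxylase, rose by 2.27. Olfactory receptor genes are a family with no known role here. Of 1089 on the array 49 were retained, and of 47 measured in both groups 38 did not pass, 8 fell and 1 rose. So few were retained that they give no reference for the shares called in other families.

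**Figure D4:**
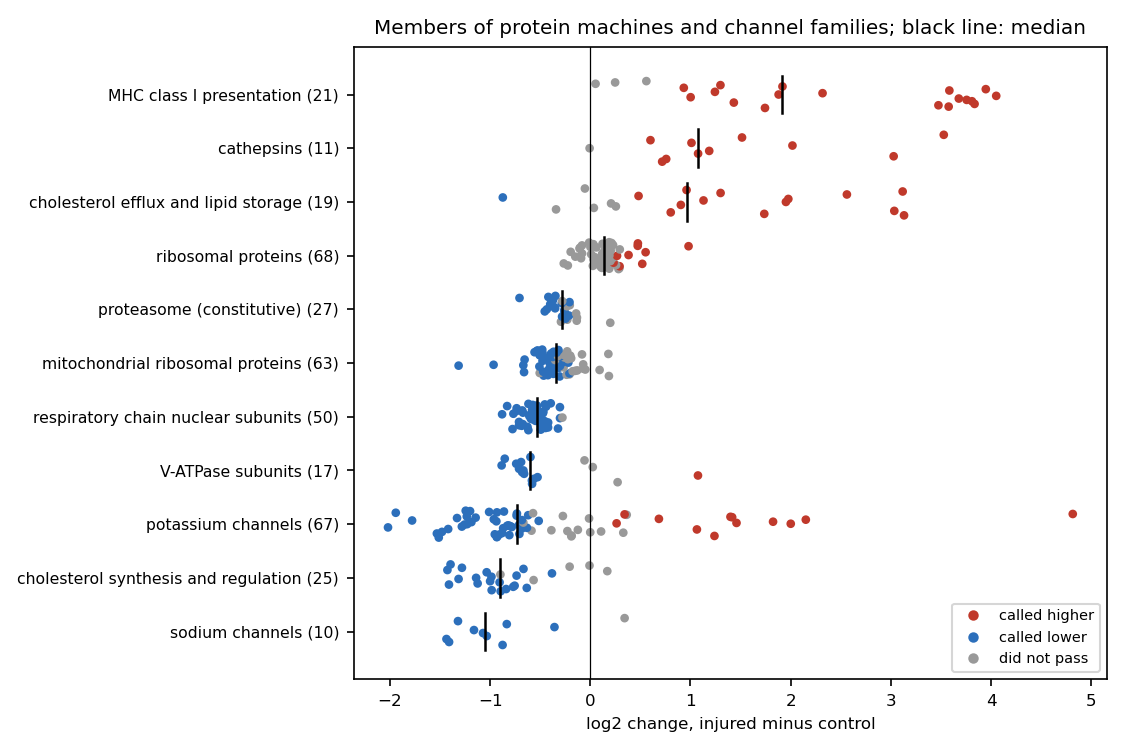
Change (injured minus control, log2) of each measured member of 11 gene lists and families, coloured red where it rose, blue where it fell and grey where it did not pass; the black line is the median and the number of members stands in brackets. Respiratory chain subunits sit in a narrow band below 0, ribosomal proteins around 0, and cathepsins and V-ATPase subunits mostly on opposite sides.

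The steepest falls mixed oligodendrocyte genes with genes of other kinds. The 4 genes that fell by 8-fold or more were Aipl1, a co-chaperone best known from photoreceptors, with -6.46, -6.46 and -4.52 in injured pups and -1.42, -1.43 and -2.23 in controls, and Hapln2, Cblc and Klk6. Aipl1 was well above background in 1 of the 3 injured pups, and its change in saline pups was 0.77 (adjusted p of the difference 0.0561). Hapln2 and Klk6 are oligodendrocyte genes, and Cblc is a ubiquitin ligase of epithelia. The next steepest among named genes were Clca1 (-2.85), the protease Prss22 (-2.83), tyrosinase, Tyr (-2.46), the myelin gene Mobp (-2.43) and the neuropeptide precursor Cartpt (-2.40). Clca1 was well above background in 1 of the 3 injured pups, and Cblc and Tyr in 2 of the 3, so the size of these falls is uncertain. Among genes called, the widest spread over the 3 injured pups included Olah, Cfi and Siglec1. Siglec1, a sialic acid receptor of macrophages, had -1.65, -3.67 and -1.70 in injured pups and -7.53, -7.53 and -7.64 in controls, where no array measured it well above background, so that it was at least 9.07-fold higher. Cfi, complement factor I, had -1.16, -1.90 and -3.37 in injured pups and -4.63, -4.94 and -4.68 in controls. Pup 2 was thus the lowest of the injured pups for Siglec1 and the middle one for Cfi. Genes below background in every injured pup were few: Fkbp6 was at least 3.17-fold lower, the GABA receptor subunit Gabra6 at least 2.84-fold lower and Dbh, dopamine beta-hydroxylase, at least 2.47-fold lower.

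The same contrast in saline-treated pups, on other arrays and other slides, gave a similar ordering of genes. Across 9132 named genes the changes of the pair of arms, which share no array, correlated at r = 0.955, a description across genes that are not independent of one another. Of 5281 genes called in MCI-186 pups 5217 had the same sign in saline pups, and of 4449 called in both arms 4444 did. Tested as such, the difference between the injury effects passed for 4 of 25166 features (0.0159%). An unadjusted p under 0.05 was found for 1018, fewer than that threshold passes on average where no feature differs. Of the 4, 3 are probes without a gene name here, with differences of 2.87, 1.09 and 3.22.

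The list medians of the arms were farthest apart for red blood cells, at 0.39 in MCI-186 pups and -0.55 in saline pups, a list in which injured MCI-186 pup 2 stood apart. Neutrophil and calprotectin genes had medians of 1.19 in MCI-186 pups and 1.85 in saline pups, and myelin genes -0.87 and -0.35 in those arms. Several other lists had smaller gaps. Activity-regulated genes were among them but not the next widest, with medians of -0.71 in MCI-186 pups and -0.37 in saline pups. No gene of the 4 lists named here passed the test of the difference. Mbp changed by -1.72 in MCI-186 pups and by -0.74 in saline pups, and the difference had an adjusted p of 1. Arc changed by -2.29 in MCI-186 pups and by -0.77 in saline pups (adjusted p of the difference 1). Rsad2 was higher in injury by 5.42 in MCI-186 pups and by 3.25 in saline pups (adjusted p of the difference 0.252). Over the 25 interferon effectors the medians were 3.46 and 3.38 in the MCI-186 and saline arms.

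**Figure D5:**
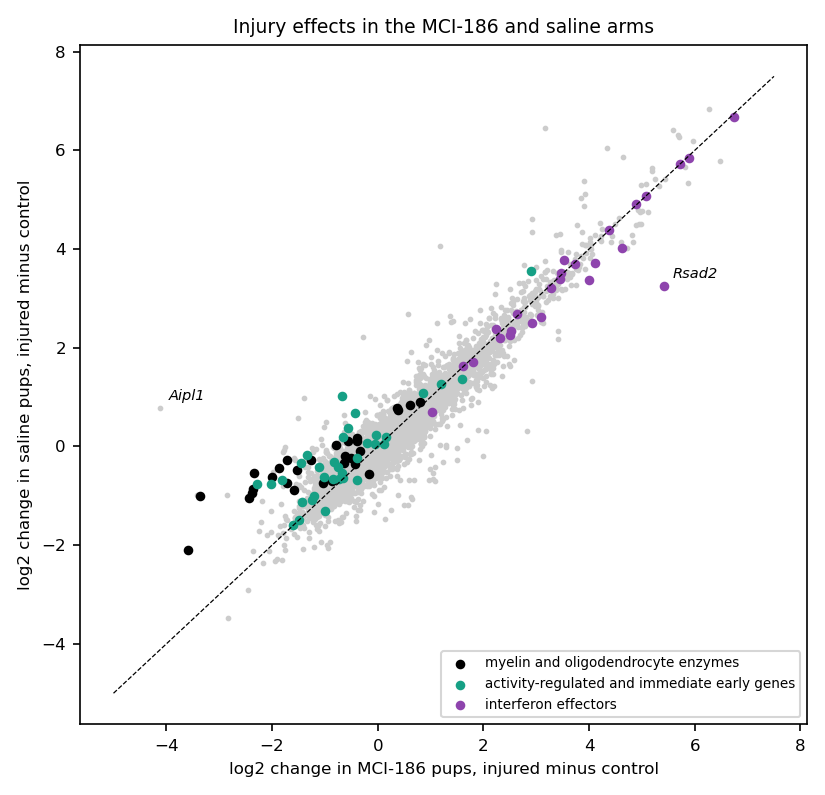
Injury change (log2, injured minus control) of each named gene in MCI-186 pups (horizontal axis) and in saline pups (vertical axis); the dashed line marks equal change and 3 lists are coloured. Interferon effectors lie around the line, with Rsad2 well below it. Several myelin and activity-regulated genes lie above the line, with a more negative value in MCI-186 pups.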

How the data were processed

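Cortical RNA of 12 Wistar pups was measured on 1-colour Agilent arrays, 1 per pup, in 4 groups of 3 taken from the sample titles. The deposited scanner files hold Cy3 intensity, which per the file headers was background-subtracted and detrended with version 9.5.3.1 of Agilent's Feature Extraction, on an array design annotated on rn4. The authors also deposited a table of log2 values whose per-probe centring is not stated, and it correlated at 0.9994 or more per array with the values computed here once probes were centred (column medians -0.12 to 0.12). The authors' own filters and tests are not stated in the sources at hand.

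Processed intensity was divided by each array's 75th percentile over non-control probes (920.4 to 1258), floored at 0.005 and taken to log2. Spots of a probe were averaged, and outlier spots were left out. Of 41012 probes, 15184 were named by accession through RefSeq's table (12206 symbols) and 25828 stay unnamed here. Probes well above background on all 3 arrays of either MCI-186 group were kept (27739); between 65.1 and 73.7% of spots per array were well above background, and precision rests on 3 arrays per group. For a gene with several probes the one with the highest mean was used, which left 25166 features. limma 3.58.1 in R 4.3.3 fitted 4 group means (8 residual degrees of freedom) with Benjamini-Hochberg adjustment over all features. A bound sets the bright group's mean against the dim group's mean of, per array, the higher of the dim signal and the lowest signal well above background. On simulated data with 25170 features, 100 were changed by 1 and 100 by 2 (log2) in the injury contrast, and 70% and 92% of these were recovered. That share of changed features is far below the 53.1% called in the data, so these rates do not give the power of the real contrast.

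Members, gene lists and families were chosen with earlier results of these data known. Named genes are the 15 highest and 15 lowest changes, the 8 largest bounds each way, list members led by the largest changes with any that went against the majority, the 3 extremes of a family, the 10 genes with the widest spread over injured pups and those leading the difference between arms. Promoter sequences are RefSeq's (GRCr8), matched by symbol. Alternatives covered background correction, normalization, scaling set, floor, filter, probe choice, the authors' table, the samples fitted, the variance prior, a replicate block and leaving out each pup. Results for some genes are not reported here.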

Additional observations from a re-analysis of the deposited data

Results flagged for a closer look

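The injury effect differed between MCI-186 and saline pups for 4 features, by limma's test of the difference with Benjamini-Hochberg adjustment over 25166 features. Of these 3 are described here, all probes without a gene name. Probe A_42_P577482 had a difference of 2.87 (adjusted p = 0.04999), with 1.84, 2.38 and 1.46 in injured MCI-186 pups and -1.13, -1.32 and -0.96 in their controls, while injured saline pups averaged 1.69 and their controls 1.53. Probe A_44_P143650 had a difference of 1.09 (adjusted p = 0.01503), with averages of 3.02 in injured MCI-186 pups and 1.91 in their controls, and of 3.11 in injured saline pups and 3.1 in their controls. In both of these the MCI-186 controls were the group apart. Probe A_44_P269407 had a difference of 3.22 (adjusted p = 0.01503) and was well above background in no MCI-186 control and in 1 of 3 injured saline pups. Since every group lies on its own slide and in its own scan, a difference between groups and 1 between slides cannot be told apart here.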

How the results depend on the processing

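Under every alternative run the counts of risen and fallen named genes and of all features called stayed within 1.5 times their values. Leaving out 1 pup at a time gave 1976 to 2492 risen genes, 2301 to 3019 fallen genes and 10325 to 13907 features called. The number of features whose injury effect differed between arms, 4, was 2 with normexp, with the mean over a gene's probes and with the replicate block, 7 with quantile normalization and 1 to 13 when 1 pup was left out, the 13 without injured MCI-186 pup 2; the cause was not tested. The share of calls that were rises ranged from 39.6 to 49.6% (42.3% as reported). Of 503 medians of gene lists recomputed 433 moved by less than the spread between replicates and 70 by more. Sign changes were counted only for lists with a median of 0.1 or more in size. There was 1, that of red blood cell genes, to -0.17 without injured pup 2. Counts of calls per list under other scalings and without single pups were added after seeing the data. Of 363 named genes recomputed, 31 lost their call in at least 1 alternative and 14 gained one. Those that changed sign were Cacng4 (-0.03) and Gper1 (-0.10), both with normexp. Replicate numbers did not pair the pups, with correlations of same-numbered deviations of 0.0073, 0.08 and -0.0218, and with the number as a replicate block 2282 genes rose and 2740 fell. No slide or scan block could be fitted, because each group has its own slide and scan. The scanner files used here have no mean signal column, so normexp used the median signal.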

Other observations

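A small set of genes was called in opposite directions in the arms, though none passed the test of the difference. Ier2, an immediate early gene, changed by -0.57 in MCI-186 pups (limma adjusted p = 0.00249) and by 0.38 in saline pups (adjusted p = 0.0197), and its difference had an adjusted p of 0.241. Btg2, an antiproliferative early gene, changed by -0.42 in MCI-186 pups and 0.67 in saline pups, and Ccn1, a matrix-associated early gene, by -0.68 and 1.03 in those arms. For Btg2 the injured pups averaged 1.75 with MCI-186 and 1.53 with saline, and the controls 2.17 and 0.86, and for Ier2 the injured pups averaged 3.46 and 3.24 and the controls 4.03 and 2.86, so that the control groups were farther apart than the injured ones for both. Gper1 and Asb5 changed by 0.36 and 0.85 in MCI-186 pups and by -0.45 and -0.90 in saline pups. Some of these calls in MCI-186 pups depended on 1 pup or on the background correction. Btg2 did not pass without injured pup 1 (-0.31, adjusted p = 0.125), Ccn1 without injured pup 3 (-0.39, adjusted p = 0.137), and Gper1 and Asb5 did not pass with normexp background correction (-0.10 and 0.06, adjusted p = 0.408 and 0.636).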
